A study of Rattus norvegicus with 6 samples.

Results

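The 10 genes described here encode secreted proteins of the connective tissue that wraps muscle fibres and bundles. They are Dcn, Lum, Bgn, Fmod, Ogn and Prelp, which belong to the small leucine-rich proteoglycans, Dpt, which encodes the small matrix protein dermatopontin, and Mfap4, Mfap5 and Fbn1 of the microfibrils. They were taken by symbol, with the transcript cluster of the highest mean signal kept for each, and all 10 were found among the 14506 genes tested.

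RNA came from the gastrocnemius, a calf muscle, of male Sprague-Dawley rats made obese by diet, and it was hybridised to Affymetrix Rat Gene 1.0 ST arrays. All rats were 12 weeks old at the start, had free access to a diet rich in fat and sucrose for 8 weeks and were 20 weeks old at sampling. The energy density was 4.6 kcal/g throughout, and protein supplied 10% of the energy. The control rats ate casein, the dairy group complete dairy given as skim milk powder, and the leucine group a mixture in which casein supplied 7.1% of the energy and leucine 2.9%. Each diet had 2 arrays, 6 in all, while the design text gives 4 rats per diet. The labels do not say whether 2 arrays of the same diet stand for different animals, so the p-values measure only the spread between these arrays. With 2 arrays against 2, an exact 2-sided permutation test cannot go below p = 0.333, so the fit across all genes was used.

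Small leucine-rich proteoglycans have a curved core of leucine-rich repeats that binds collagen and limits the thickness of its fibrils. Decorin and biglycan carry chondroitin or dermatan sulfate chains, while lumican and fibromodulin can carry keratan sulfate. Fibrillin-1, the product of Fbn1, polymerises into microfibrils, which carry elastin and store latent TGF-beta. In muscle these genes are expressed mainly by fibroblasts and fibro-adipogenic cells between the fibres, and by cells of tendon and fascia, rather than by the fibres.

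Several of the proteoglycan genes lie side by side in the genome. Among the protein-coding genes of the RefSeq annotation of GRCr8, Dcn was followed by Lum, Kera and Epyc, Ogn by Omd and Aspn, and Optc by Prelp and Fmod. All of these neighbours encode leucine-rich proteoglycans, so Prelp and Fmod, which had the largest differences between diets below, are adjacent genes.

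The RefSeq promoter table held 6 of the 10 genes, namely Lum, Fmod, Ogn, Dpt, Mfap5 and Fbn1. The 250 bases before the annotated gene start are shown for Fmod, which had the widest range over the arrays, and for Fbn1 and Mfap5, microfibril partners whose signals ran together. The Fmod stretch is chr13:48045317-48045566 on the plus strand, that of Fbn1 chr3:133203391-133203640 on the minus strand and that of Mfap5 chr4:157399669-157399918 on the plus strand, all in GRCr8 and written 5′ to 3′ along the gene. Capitals mark every match, on either strand, to the TATA box TATAAA, the CCAAT box CCAAT, the GC box GGGCGG, the AP-1 site TGACTCA or the SMAD box CAGACA.
Fmod: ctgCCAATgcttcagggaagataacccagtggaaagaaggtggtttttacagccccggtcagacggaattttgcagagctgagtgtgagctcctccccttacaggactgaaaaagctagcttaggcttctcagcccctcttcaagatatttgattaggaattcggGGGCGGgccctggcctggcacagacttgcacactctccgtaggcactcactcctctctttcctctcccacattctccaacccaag
Fbn1: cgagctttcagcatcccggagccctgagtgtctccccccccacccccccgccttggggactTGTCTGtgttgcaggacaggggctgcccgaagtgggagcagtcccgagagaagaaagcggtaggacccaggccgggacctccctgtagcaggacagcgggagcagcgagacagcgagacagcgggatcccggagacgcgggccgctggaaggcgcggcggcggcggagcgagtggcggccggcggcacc
Mfap5: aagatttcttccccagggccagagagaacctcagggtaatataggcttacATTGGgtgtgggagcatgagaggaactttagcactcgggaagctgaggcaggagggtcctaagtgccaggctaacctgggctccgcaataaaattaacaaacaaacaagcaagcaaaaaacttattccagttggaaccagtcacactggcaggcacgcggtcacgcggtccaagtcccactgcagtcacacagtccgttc

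The 3 stretches differed in composition. That of Fbn1 held 71.2% G and C and 24 CpG dinucleotides, against 52.8% and 5 for Fmod and 51.6% and 7 for Mfap5, where the median of all 33469 promoters was 51.2% G and C. A CCAAT box was found in 4 of the 6 members' stretches (Lum, Fmod, Dpt and Mfap5) and in 34.0% of all promoters. A TATA box was found in 2 of the 6, Ogn and Dpt, and in 12.9% of all promoters. The SMAD box was found in Fbn1 only among the 6, and in 17.2% of all promoters. The GC box was found in Fmod only among the 6, and in 30.5% of all promoters. The AP-1 site was found in 0 of the 6 and in 4.05% of all promoters. A match describes the letters and not a bound site.

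The deposited values were log2 signals with medians between 3.46 and 3.56 per array, and 9 of the 10 genes lay above the median gene of 4.15, while Lum lay below it at a mean of 3.67. Fast-fibre markers, the main contractile genes of this muscle, had mean levels between 11.9 and 12.6 on all arrays. The protocol texts mention liver in the storage and extraction steps, and the mean level of 16 hepatocyte markers ran from 3.53 to 6.86. Casein array 2 stood apart from the rest. Its mean correlation with the other arrays was 0.974 against 0.985 to 0.988, its slow-fibre markers averaged 6.19 against 9.81 to 10.4 elsewhere, and its hepatocyte markers had the highest mean, 6.86. Values of the comparisons with casein are therefore also given without that array for the 10 genes, and for the gene lists where they differ clearly.

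**Figure D1:**
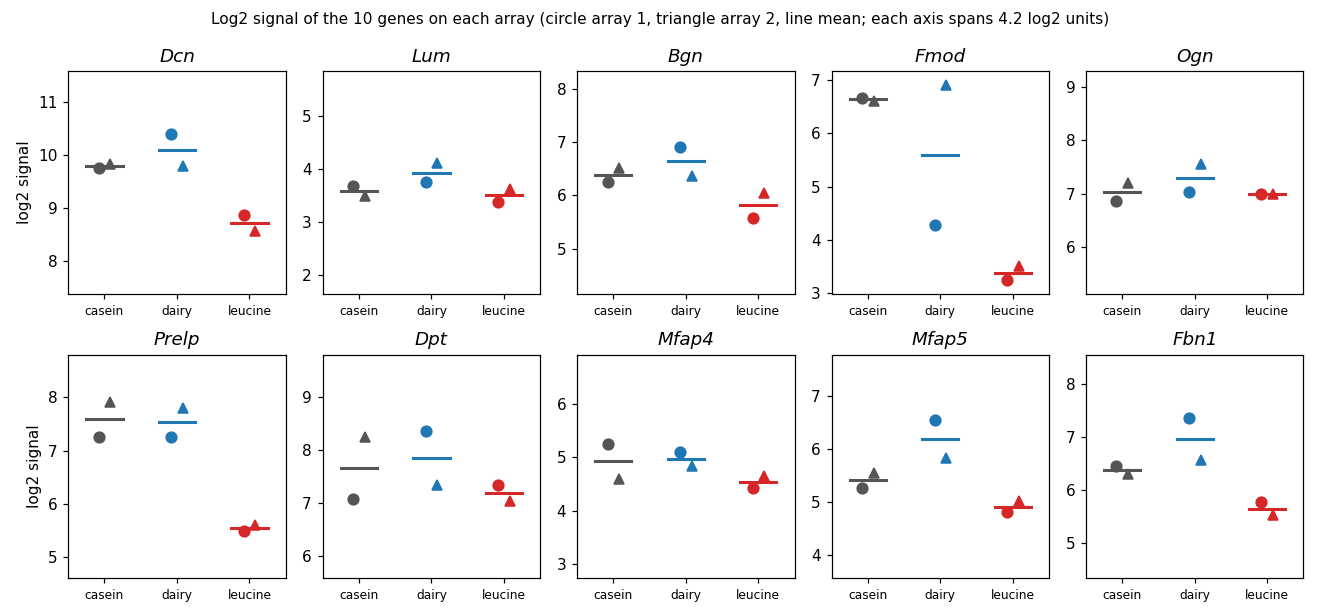
Log2 signal of each of the 10 genes (y axis, log2 units, the same span in every panel) on the 2 arrays of each diet (x axis), with a circle for array 1, a triangle for array 2 and a line at the mean. Prelp lies at 5.49 and 5.60 with leucine and at 7.26 or above on the other 4 arrays, while Fmod is split within the dairy diet at 4.27 and 6.91.

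Across the 10 genes, the arrays of the leucine diet were the low ones. On both leucine arrays all 10 genes lay below their own mean over the 6 arrays, with medians of −0.62 and −0.51 log2 units. Of the casein arrays, array 1 had 6 of 10 genes above their own mean and array 2 had 7, and of the dairy arrays, array 1 had 8 and array 2 had 9. The highest array was a dairy array for 8 genes and a casein array for 2. The lowest was a leucine array for 9 genes and casein array 1 for 1 gene, Ogn. These counts by array were made for the 10 genes only, so no share of all genes stands beside them.

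The first comparison asked what changed in muscle when leucine took the place of part of the casein. All 10 genes had a lower mean with leucine than with casein, where 50% of all genes did, and the median log2 fold change was −0.53 against 0 over all genes. The largest differences were in the collagen-binding proteoglycan genes Fmod, Prelp and Dcn, at 9.64-fold, 4.13-fold and 2.11-fold lower. These 3 were over 2-fold lower, as were 0.979% of all genes, and 0 of 10 were over 2-fold higher, where 0.489% of all genes were. By limma with Benjamini-Hochberg adjustment 0 of the 10 passed, as did 0% of the 14506 genes, with a lowest adjusted p of 0.353 over all genes. At an unadjusted p under 0.05, 3 of 10 were lower (Dcn, Fmod and Prelp) and 0 higher, against 4.85% of all genes lower and 4.76% higher.

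Prelp encodes a heparin-binding proteoglycan thought to anchor basement membranes to connective tissue. Its signals were 7.26 and 7.92 with casein, 7.26 and 7.81 with dairy, and 5.49 and 5.60 with leucine. The leucine arrays lay below all others by more than the spread within any diet. With leucine the mean was 5.55 ± 0.07 (SD, n = 2), and with casein it was 7.59 ± 0.46 (SD, n = 2). This log2 fold change of −2.04 ± 0.30 (SE) had an adjusted p of 0.353 by limma. It was −1.72 when casein array 2 was left out and −2.37 when array 1 was.

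Dcn encodes decorin, which binds type I collagen and TGF-beta. Its signals were 9.75 and 9.84 with casein, 10.4 and 9.79 with dairy, and 8.87 and 8.57 with leucine. Here too both leucine arrays lay below the other 4. The log2 fold change against casein was −1.08 ± 0.24 (SE, n = 2 against 2), with an adjusted p of 0.380 by limma. Leaving out single arrays of these diets gave values from −1.22 to −0.93.

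Fmod encodes fibromodulin, a regulator of collagen fibril maturation and cross-linking. Its signals were 6.67 and 6.61 with casein, 4.27 and 6.91 with dairy, and 3.24 and 3.501 with leucine. The casein arrays were high, the leucine arrays low and the dairy arrays far apart. The log2 fold change of leucine against casein was −3.27 ± 0.90 (SE, n = 2 against 2), with an adjusted p of 0.419 by limma. The SE comes from the shared model and is widened by the dairy arrays, since the SD was 0.05 with casein and 0.18 with leucine but 1.87 with dairy.

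Bgn encodes biglycan, the closest relative of decorin. Its signals were 6.25 and 6.52 with casein, 6.92 and 6.37 with dairy, and 5.57 and 6.05 with leucine. The leucine arrays lay below the others but close to them on array 2. Its log2 fold change against casein was −0.57 ± 0.27 (SE, n = 2 against 2), with a 95% interval from −1.30 to 0.15. Without leucine array 1 it was −0.33.

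Lum and Ogn, which encode lumican and osteoglycin, showed no such separation. Lum had signals of 3.68 and 3.48 with casein, 3.74 and 4.11 with dairy, and 3.38 and 3.62 with leucine. Ogn had signals of 6.86 and 7.20 with casein, 7.03 and 7.56 with dairy, and 6.989 and 6.996 with leucine. In both genes the casein and leucine arrays overlapped. The log2 fold changes of leucine against casein were −0.08 ± 0.17 for Lum, with a 95% interval from −0.54 to 0.37, and −0.04 ± 0.22 for Ogn, with an interval from −0.64 to 0.56. When each array was set to a common median, which moved the median of all genes by 0.10 in this comparison, both turned to the other sign, at 0.018 and 0.060. Without casein array 2 Ogn was also above casein, at 0.13, as was Lum at 0.012 without casein array 1 and at 0.036 without leucine array 1.

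Among the microfibril genes the differences from casein were smaller than in Prelp. Fbn1 stood at 6.45 and 6.31 with casein, 7.36 and 6.57 with dairy, and 5.77 and 5.54 with leucine. Mfap5, whose product MAGP-2 binds fibrillin, stood at 5.26 and 5.55 with casein, 6.54 and 5.83 with dairy, and 4.81 and 5.01 with leucine. Both followed the order dairy above casein above leucine with no overlap between diets. The log2 fold change of leucine against casein was −0.72 ± 0.29 for Fbn1 and −0.49 ± 0.27 for Mfap5 (SE, n = 2 against 2), with adjusted p of 0.551 and 0.646 by limma. Mfap4, a fibrinogen-domain protein of elastic fibres, stood at 5.25 and 4.60 with casein, 5.11 and 4.85 with dairy, and 4.42 and 4.65 with leucine. Its casein arrays enclosed leucine array 2, and the log2 fold change was −0.39 ± 0.26, with −0.07 when casein array 1 was left out and −0.72 when array 2 was.

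Dpt, whose product binds decorin and helps to assemble collagen fibrils, varied more within diets than between them. Its signals were 7.08 and 8.24 with casein, 8.35 and 7.34 with dairy, and 7.34 and 7.04 with leucine. Casein array 2 and dairy array 1 were high, and the leucine arrays overlapped with the lower array of both other diets. The log2 fold change of leucine against casein was −0.47 ± 0.53 (SE, n = 2 against 2), which became 0.11 when casein array 2 was left out and −1.05 when array 1 was.

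In 6 of the 10 genes (Dcn, Bgn, Fmod, Prelp, Mfap5 and Fbn1) both leucine arrays lay below both casein arrays, where 15.6% of all genes were separated in that direction. Without casein array 2 the log2 fold changes of Fmod, Bgn, Fbn1 and Mfap5 were −3.30, −0.44, −0.79 and −0.35, that of Dcn was −1.04 and that of Lum −0.18. Without it 8 of 10 genes kept a lower mean with leucine, the exceptions being Ogn and Dpt, and the median log2 fold change was −0.58. Without casein array 1 the count was 9 and the median −0.68.

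**Figure D2:**
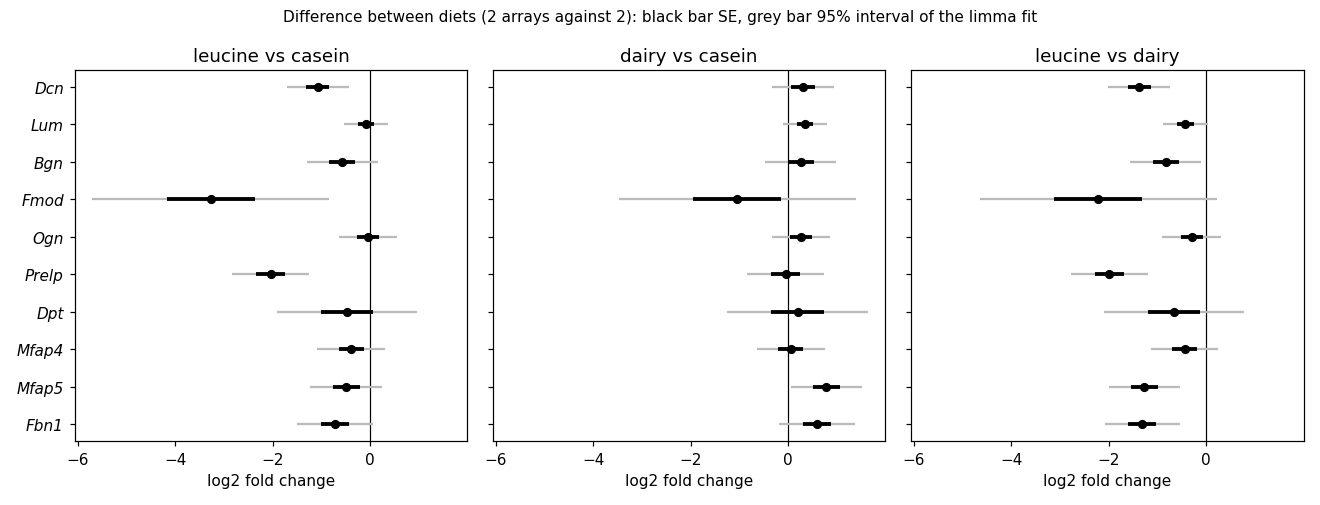
Log2 fold changes (x axis, log2 units) of the 10 genes (rows) in the 3 pairs of diets, 2 arrays against 2, with the SE as a black bar and the 95% interval as a grey bar. All 10 points lie below 0 for leucine against casein and for leucine against dairy, while 8 of 10 lie above 0 for dairy against casein.

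The dairy diet was next set against casein, the question being how complete dairy, given as skim milk powder, compared with casein. Of the 10 genes 8 had a higher mean with dairy, where 51.2% of all genes did, and Fmod and Prelp were lower, where 47.6% of all genes were. The median log2 fold change was 0.26 against 0.0028 over all genes. Mfap5 stood furthest above casein, at 1.72-fold, and Fbn1 followed at 1.50-fold. The largest difference was that of Fmod, 2.07-fold lower at a log2 fold change of −1.05 ± 0.90 (SE, n = 2 against 2), with its dairy arrays far apart. It was the 1 member over 2-fold lower, where 0.696% of all genes were, and 0 were over 2-fold higher, where 0.241% were. By limma 0 of 10 passed, as did 0% of all genes, with a lowest adjusted p of 0.833. At an unadjusted p under 0.05 Mfap5 was higher and 0 members were lower, against 2.49% of all genes higher and 2.31% lower.

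Mfap5 had a log2 fold change of 0.78 ± 0.27 (SE, n = 2 against 2) for dairy against casein, and Fbn1 one of 0.59 ± 0.29. Dairy array 1 carried much of both. Without it Mfap5 stood at 0.43 and Fbn1 at 0.19, and without dairy array 2 at 1.13 and 0.98. Lum was the only other gene in which both dairy arrays lay above both casein arrays, with a log2 fold change of 0.35 ± 0.17. These 3 of 10 genes compare with 11.5% of all genes separated in that direction.

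For every member but Mfap5 the 95% interval of the difference between dairy and casein included 0. Prelp had a log2 fold change of −0.06 ± 0.30 with a 95% interval from −0.85 to 0.74, and Mfap4 one of 0.05 ± 0.26 with an interval from −0.64 to 0.74. Dcn had a log2 fold change of 0.30 ± 0.24, Bgn and Ogn one of 0.26 each (SE 0.27 and 0.22), and Dpt one of 0.19 ± 0.53. Without dairy array 1 the log2 fold changes of Dcn, Bgn, Dpt and Mfap4 were below 0, at −0.0026, −0.017, −0.32 and −0.08. Without it Fmod and Prelp stood at 0.27 and 0.21, so that 4 of 10 genes, and not the same ones, had a lower mean with dairy. Without casein array 2 the genes with a lower mean were Fmod and Mfap4, at −1.08 and −0.27, and the median was 0.37. Without it Mfap5 stood at 0.92, Fbn1 at 0.52, Lum at 0.25, Dcn at 0.34, Bgn at 0.40, Ogn at 0.43, Prelp at 0.27 and Dpt at 0.77.

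The third comparison set the leucine diet against the dairy diet, so that neither mean rested on casein array 2. All 10 genes again had a lower mean with leucine, where 49% of all genes did, and the median log2 fold change was −1.05 against 0 over all genes. Prelp was 3.97-fold lower, Dcn 2.60-fold, Fbn1 2.48-fold and Mfap5 2.42-fold lower, and Fmod, with its dairy arrays far apart, 4.66-fold lower. By limma 0 of 10 passed, as did 0% of all genes, with a lowest adjusted p of 0.514. At an unadjusted p under 0.05, 5 of 10 were lower (Dcn, Bgn, Prelp, Mfap5 and Fbn1) and 0 higher, against 3.45% of all genes lower and 2.25% higher. This comparison shares its leucine arrays with the first and its dairy arrays with the second, so they are not separate evidence.

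Prelp had a log2 fold change of −1.99 ± 0.30 (SE, n = 2 against 2) for leucine against dairy, and Dcn one of −1.38 ± 0.24, both with an adjusted p of 0.514 by limma. Fbn1 had one of −1.31 ± 0.29 and Mfap5 one of −1.27 ± 0.27, with adjusted p of 0.606 and 0.595. The Bgn value was −0.83 ± 0.27 and the Lum value −0.43 ± 0.17. In 9 of the 10 genes both leucine arrays lay below both dairy arrays, Dpt being the exception, where 14.9% of all genes were separated in that direction and 13.4% in the other. Over 2-fold differences were seen in 5 of 10 genes, against 0.565% of all genes.

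Single dairy arrays changed the size of these differences but not their direction. Without dairy array 1 the median of the 10 genes was −0.76, and the log2 fold changes were −2.26 for Prelp, −1.07 for Dcn, −0.92 for Fbn1 and −0.92 for Mfap5. Fmod depended most on the dairy array used, at −3.54 without dairy array 1 and −0.90 without dairy array 2, around a value of −2.22 ± 0.90. The values for Ogn were −0.57 and −0.034 in the same order, and those for Dpt −0.15 and −1.17.

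Over all 3 diets, 5 of 10 genes had an unadjusted p under 0.05 in limma's F test, against 7.25% of all genes, and 0 of 10 passed after adjustment, as did 0% of all genes. Prelp and Dcn had the lowest adjusted p, 0.530, which was also the lowest over all genes. The spread between arrays of a diet was large in this group of genes. The pooled SD within diets ran from 0.19 for Lum to 1.08 for Fmod, where the median gene had 0.14.

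The 10 genes did not all follow the same course over the arrays. Dcn, Fbn1, Mfap5 and Bgn ran together, with dairy array 1 as the highest array of each. Over the 6 arrays Pearson's r was 0.960 between Dcn and Fbn1, 0.939 between Mfap5 and Fbn1 and 0.924 between Bgn and Mfap5. These values describe 6 arrays that share diets and RNA, and carry no test. Of the 45 pairs among the 10 genes 43 had an r above 0, with a median of 0.53, a highest value of 0.960 and a lowest of −0.18 between Ogn and Mfap4.

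Fmod took another course, in which dairy array 1 was low with the leucine arrays. A pair of related genes that are not members, of which Kera was chosen after its values were seen, shared it. Kera, which encodes the keratan sulfate proteoglycan keratocan, had signals of 5.73 and 5.69 with casein, 3.57 and 6.54 with dairy, and 3.30 and 3.68 with leucine. Chad, which encodes chondroadherin, a leucine-rich repeat protein of cartilage and tendon, had 6.99 and 7.41 with casein, 4.68 and 6.75 with dairy, and 4.46 and 4.13 with leucine. In all 3 genes casein arrays and dairy array 2 were high and the remaining 3 arrays low. Over the 6 arrays r with Fmod was 0.972 for Kera and 0.969 for Chad, and 0.884 for Prelp, its genomic neighbour, which was high on dairy array 1 at 7.26.

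Dairy array 1 lay below dairy array 2 by 2.97 for Kera, 2.64 for Fmod and 2.07 for Chad. Among all 14506 genes these were the largest, the second largest and the sixth largest differences in that direction, with Cdkn1a, Sln and Ankrd1 between them. On the same array Dcn, Fbn1 and Mfap5 lay above dairy array 2, by 0.61, 0.79 and 0.70. The leucine comparison for Chad was −2.90 ± 0.73 against casein and −1.42 ± 0.73 against dairy, and for Kera −2.22 ± 1.02 and −1.57 ± 1.02 (SE, n = 2 against 2), none past the limma threshold.

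**Figure D3:**
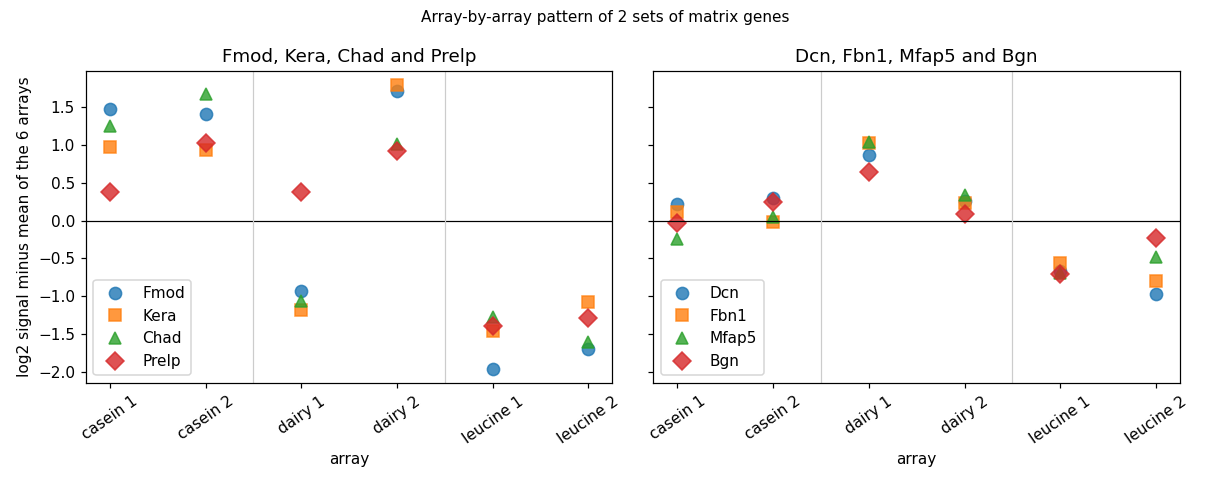
Log2 signal minus each gene's mean over the 6 arrays (y axis, log2 units) on each array (x axis), for Fmod, Kera, Chad and Prelp on the left and Dcn, Fbn1, Mfap5 and Bgn on the right. On dairy array 1 Fmod, Kera and Chad lie below 0 with the leucine arrays, whereas the 4 genes on the right are at their highest.

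The remaining leucine-rich proteoglycans gave a mixed picture. Of 8 measured relatives, 5 were counted as lower and 3 as higher with leucine than with casein, with a median of −0.16, and 0 passed in any comparison. The 5 include Nyx only through rounding, since it was equal at 3.62 on all casein and leucine arrays. With casein array 2 left out, 6 of 8 were counted as lower, again including Nyx, and the median was −0.050. Aspn, which encodes asporin and neighbours Ogn and Omd, had a higher mean with leucine than with casein. Its signals were 4.50 and 3.61 with casein, 5.01 and 5.19 with dairy, and 4.66 and 5.17 with leucine, so that both other diets lay above casein, by 1.04 ± 0.36 for dairy and 0.86 ± 0.36 for leucine. Without casein array 2 these were 0.60 and 0.41. For leucine against dairy the Aspn value was −0.18 ± 0.36. Omd, at 2.24 to 3.19 over the arrays, and Epyc, at 2.01 to 2.40, were dim, and had log2 fold changes of −0.55 ± 0.21 and 0.24 ± 0.10 for leucine against dairy.

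Genes of the wider elastic fibre and microfibril system were lower with leucine than with casein in 17 of 19 measured genes, with a median of −0.24, and 0 passed. By smallest p the genes to name were Efemp2, which encodes fibulin-4, at −0.45 ± 0.09, and Lox, which cross-links collagen and elastin, at −0.58 ± 0.13. With dairy against casein 11 of 19 were higher with a median of 0.04, or 0.016 without casein array 2, and by the same rule Adamtsl4, whose product binds fibrillin-1, stood at 0.61 ± 0.07 and Loxl1, an elastin cross-linker, at 0.45 ± 0.12. With leucine against dairy 16 of 19 were lower with a median of −0.37, with Loxl1 at −0.86 ± 0.12 and Adamtsl4 at −0.52 ± 0.07. In Adamtsl4 the dairy arrays at 6.61 and 6.52 stood above the casein arrays at 5.97 and 5.95 and the leucine arrays at 5.99 and 6.10.

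Among collagens to which the proteoglycans bind, all 7 measured genes had a lower mean with leucine than with either other diet, with medians of −0.70 against casein and −1.44 against dairy, and 0 passed. The second median was −0.95 without dairy array 1. The genes with the smallest p were Col1a1, at −1.94 ± 0.27, and Col5a1, at −0.35 ± 0.06, against casein, and Col3a1, at −1.44 ± 0.17, and Col5a1, at −0.52 ± 0.06, against dairy. With dairy against casein 6 of 7 were higher, with Col3a1 at 0.74 ± 0.17 and Col5a1 at 0.16 ± 0.06. Against casein array 1 alone, 3 of the 7 were lower with dairy. Pcolce, which encodes an enhancer of procollagen processing and was listed with TGF-beta genes, had signals of 6.48 and 6.51 with casein, 6.79 and 6.45 with dairy, and 5.50 and 5.72 with leucine, an array pattern like that of Dcn.

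Glycosaminoglycan chains are built on the core proteins by a series of enzymes. Of 21 measured genes of this synthesis, 15 were counted as lower and 6 as higher with leucine than with casein. These counts include B3gat3 and Papss2 only through rounding, since each was equal on all casein and leucine arrays. The list had a median of −0.13, and 0 passed. The median was −0.066 without casein array 2. Those with the smallest p were Dse, the epimerase that makes dermatan sulfate, at −0.67 ± 0.18, and the chondroitin sulfotransferase gene Chst12 at −0.57 ± 0.16. Against dairy the same genes had the smallest p, at −0.46 ± 0.18 and −0.47 ± 0.16, in a list with a median of −0.07. With dairy against casein the list had a median of −0.01, with Chst15 at −0.18 ± 0.06 and B4galt7 at 0.28 ± 0.12, the latter at 0.16 without dairy array 1.

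In the TGF-beta list 8 of 12 measured genes were lower with leucine than with casein, with a median of −0.12, and 0 passed. With casein array 2 left out, 7 of 12 were lower and the median was −0.065. Pcolce stood at −0.89 ± 0.15 and Smad4, the common mediator, at 0.17 ± 0.07. Against dairy 9 of 12 were lower, with Pcolce at −1.01 ± 0.15 and the co-receptor gene Tgfbr3 at −0.89 ± 0.20. With dairy against casein 9 of 12 were higher, with Smad4 at 0.25 ± 0.07 and Tgfbr3 at 0.46 ± 0.20, which was 0.20 without dairy array 1.

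Receptors and partners of the proteoglycans had 6 of 11 genes lower with leucine than with casein, with a median of −0.06, and 0 passed. With casein array 2 left out, 8 of 11 were lower and the median was −0.19. Against dairy 9 of 11 were lower with leucine, with a median of −0.11, and 0 passed. Lrp1, an endocytic receptor of decorin, had signals of 7.10 and 7.18 with casein, 7.26 and 7.12 with dairy, and 6.59 and 6.67 with leucine, a log2 fold change of −0.51 ± 0.08 against casein and −0.56 ± 0.08 against dairy. Egfr, the growth factor receptor that decorin binds, stood at −0.69 ± 0.14 against casein, and Mrc2, a collagen uptake receptor, at −0.67 ± 0.14 against dairy. With dairy against casein Igf1r stood at 0.31 ± 0.18 and Vldlr at 0.54 ± 0.42, with overlapping arrays in both. Without casein array 2 they were 0.06 and 0.12.

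Most markers of fibroblasts and fibro-adipogenic cells had a lower mean with leucine, as the 10 genes did. Of 10 measured markers 8 were lower with leucine than with casein and 9 lower than with dairy, with medians of −0.39 and −0.75, and 0 passed. The second was −0.50 without dairy array 1, and without casein array 2 all 10 were lower than with casein. Their mean level per array was 5.99 and 5.98 with casein, 6.43 and 5.94 with dairy, and 5.61 and 5.54 with leucine, so dairy array 1 was the highest here too. The markers not lower than with casein were Pdgfrb, with means of 6.64 with leucine against 6.55, and Fap, with 3.35 against 3.32. The marker not lower than with dairy was Osr1, with 4.18 against 4.05. Among the lower ones, Gsn, which encodes the actin-severing gelsolin, stood at 10.3 and 10.5 with casein, 10.7 and 10.1 with dairy, and 9.47 and 9.06 with leucine. Vim, the intermediate filament of mesenchymal cells, stood at 9.19 and 9.28 with casein, 9.48 and 9.26 with dairy, and 8.47 and 8.57 with leucine, and Pdgfra, which defines fibro-adipogenic cells, at 5.66 and 5.70, 6.07 and 5.64, and 5.14 and 5.27 in the same order. Fewer cells of this type and less RNA per cell cannot be told apart in whole muscle, and the part of these markers in the differences of the 10 genes was not tested.

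Tendon markers were lower with leucine than with casein in 4 of 4 measured genes, with a median of −0.59, and 0 passed. Tnmd, the defining tendon marker among them, was dim throughout, between 2.25 on dairy array 1 and 3.03 on casein array 1. Scx, the tendon transcription factor, ran from 4.67 on leucine array 1 to 6.04 on casein array 1. It stood at 5.43 and 5.24 on the dairy arrays and at 5.35 on leucine array 2. The other 3 markers, Tnmd, Comp and Cilp, were lower on dairy array 1 than on dairy array 2, at 2.25 against 2.86, 3.96 against 4.24 and 6.05 against 6.27. Cilp on dairy array 1 nevertheless lay above the casein arrays, at 4.82 and 4.88, whereas Fmod, Kera and Chad lay below them there. The list's mean level was 4.66 and 4.33 with casein, 4.42 and 4.65 with dairy, and 3.74 and 4.10 with leucine, and its part in the course of Fmod, Kera and Chad was not tested.

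Markers of other cell types also differed in mean between diets. Macrophage markers were lower with leucine in 12 of 12 genes in both comparisons, with medians of −0.57 against casein and −0.67 against dairy. Against casein array 1 alone 6 of 12 were lower and the median was −0.12. Their mean level lay between 4.55 and 5.61 over the arrays. Adipocyte markers were lower in 7 of 8 genes against casein and 8 of 8 against dairy, with medians of −0.69 and −0.63 that were −0.39 without casein array 2 and −0.19 without dairy array 1. They were highest on casein array 2 and dairy array 1, with mean levels of 5.34 and 5.32 against 4.10 to 4.66 elsewhere. The same arrays were the high ones for Dpt. Endothelial markers had 3 of 9 genes lower with leucine than with casein and 8 of 9 lower than with dairy, with medians of 0.25 and −0.25. Without casein array 2 the first median was at 0. The count was then 5 of 9 lower only if Tek, equal at 6.24 on casein array 1 and both leucine arrays, is taken as lower. Smooth muscle and pericyte markers were lower in 6 of 8 in both, with medians of −0.17 and −0.27, and Schwann cell markers in 4 of 5 in both, with medians of −0.52 and −0.22, the second being −0.041 without dairy array 1. Fast-fibre markers were lower with leucine in 8 of 10 genes against casein and 9 of 10 against dairy, with medians of −0.11 and −0.24. These were −0.20 without casein array 2 and −0.14 without dairy array 1. Slow-fibre markers were higher in 9 of 9 against casein and 8 of 9 against dairy, with medians of 2.18 and 0.36. The first was −0.048 without casein array 2. Hepatocyte markers were lower than with casein in 16 of 16 genes with leucine and in 16 of 16 with dairy, with medians of −1.33 and −1.78. Without casein array 2 these medians were −0.37 and −0.76. With leucine against dairy 14 of 16 were higher and 2 lower, with a median of 0.48. In each of these lists 0 genes passed, and their part in the results was not tested.

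**Figure D4:**
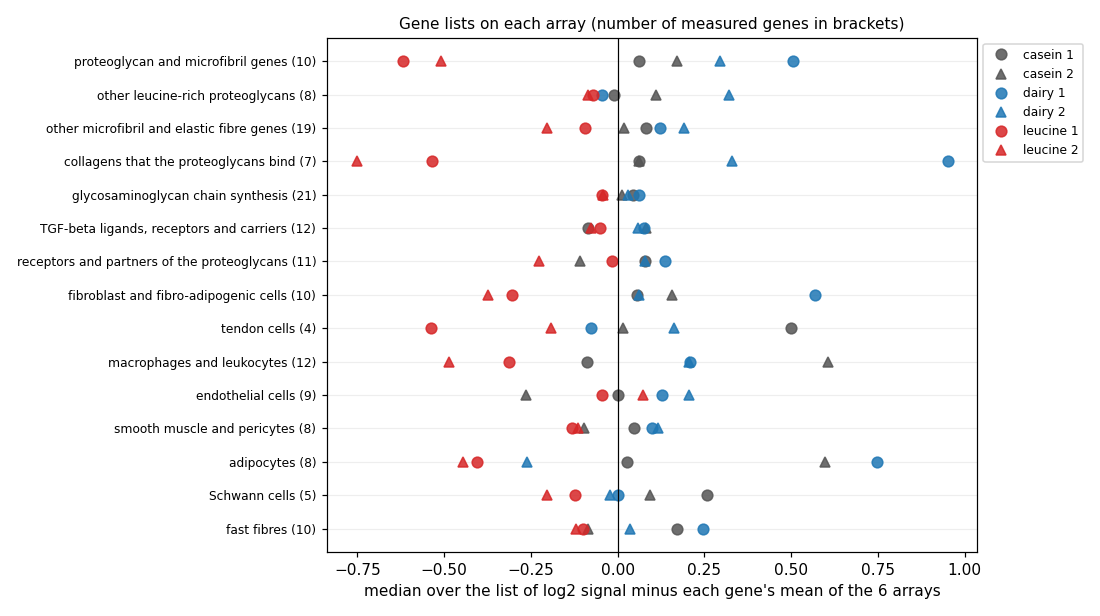
Median over each gene list of the log2 signal minus each gene's mean over the 6 arrays (x axis, log2 units) for every array, with lists in rows and the number of measured genes in brackets. The proteoglycan and microfibril genes lie at −0.62 and −0.51 on the leucine arrays and at 0.51 on dairy array 1. Both leucine arrays lie below the other 4 in every list shown except the TGF-beta genes, the receptors and partners, and the endothelial markers. Slow-fibre and hepatocyte markers are not shown and also depart from this. On the leucine arrays they lie at 0.78 and 1.08, and at −1.14 and 0.80.

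Among genes outside the 10 with a mean level above the median gene, 8 were named by their likeness to the mean course of the members, measured as Pearson's r over the 6 arrays. They were Myoz1, a sarcomeric protein of fast fibres, Hyal2, a hyaluronidase, Pfkl, a phosphofructokinase, Npdc1, P2ry2, Lrp1, Lfng and Vim, with r from 0.982 to 0.990. The best match, Myoz1, had signals of 11.60 and 11.59 with casein, 11.69 and 11.66 with dairy, and 11.22 and 11.26 with leucine. Vim and Lrp1 were also on the lists above. With 6 arrays and 7244 candidates such values describe these arrays only.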

How the data were processed

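The authors deposited log2 signals per transcript cluster. The submitters' processing notes name Affymetrix Expression Console, while its version, background correction and normalization are not given in the sources used here. Values ran from 1.14 to 13.7, as log2 signals do. Some signals are exactly equal on several arrays (all 6 in 124 genes), which limits their precision. Among genes named by smallest p, the casein signals of Col5a1 were equal, as were the dairy signals of Chst15 and Egfr. Such ties make the SEs of these genes smaller. Of 29214 clusters, 15310 had 1 gene in the platform annotation. Symbols were updated by gene identifier to GRCr8 RefSeq, and the cluster with the highest mean was kept per symbol, leaving 14506 genes with no filter.

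The 3 diets were fitted jointly, without other covariates, in limma 3.58.1 (R 4.3.3; 6 arrays, 3 residual degrees of freedom, empirical Bayes), with Benjamini-Hochberg adjustment over all genes and a threshold of 0.05, and tested on simulated data. Replicate numbers were not taken to pair samples, because the deviations of same-numbered arrays correlated at 0.0865, 0.179 and 0.0536, not all above 0.1. The 10 genes and all lists were chosen with earlier results of these data known. Named besides the members were, per list and comparison, up to 2 genes with the smallest p, and 8 genes by likeness; Kera, Cdkn1a, Sln, Ankrd1, Il6 and the markers named singly were chosen after their values were seen. Alternatives covered normalization, filter, row choice, variance trend, fitted diets, a replicate block and each array left out.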

Additional observations from a re-analysis of the deposited data

How the results depend on the processing

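No member passed in any comparison under any of the alternatives run, with lowest adjusted p among members of 0.124, 0.468 and 0.473 for leucine against casein, dairy against casein and leucine against dairy. Over all genes 1 gene, Il6, passed without casein array 1, in both comparisons with casein. Casein array 2 gave it a signal of 6.97, and the other arrays gave 2.0 to 2.40. With the replicate number as a block, the medians of the members were −0.53, 0.26 and −1.05. The block cannot change these medians, since every diet has the same replicate numbers. With it 0 genes passed, so the block changed no call. The members' median for dairy against casein was 0.13 after quantile normalization and ranged from 0.19 to 0.37 with single arrays left out. For leucine against casein it ranged from −0.68 to −0.51 and for leucine against dairy from −1.14 to −0.76, and the latter was −1.27 when only genes above the median level were kept, which drops Lum. The number of members with a lower mean, a count added after the data were seen, ranged with single arrays left out from 8 to 10, from 2 to 4 and was 10. The variance trend, the filter, the row choice, the fitted diets and the block cannot change a member's log2 fold change. Nor can leaving out an array of the diet not compared. With these counted in, directions held in 129 of 129 values for leucine against dairy. They held in 123 of 129 for leucine against casein and in 119 of 129 for dairy against casein. The exceptions for leucine against casein were Lum at 0.018 and Ogn at 0.060 with a common median per array. With single arrays left out Lum ranged from −0.20 to 0.036, Ogn from −0.21 to 0.13 and Dpt from −1.05 to 0.11. For dairy against casein, with single arrays left out, Dcn ranged from −0.0026 to 0.60, Bgn from −0.017 to 0.53, Fmod from −2.37 to 0.27, Ogn from −0.0070 to 0.53, Prelp from −0.38 to 0.27, Dpt from −0.39 to 0.77 and Mfap4 from −0.27 to 0.38. The causes were not tested. Background readings were not analysed here, so how far Lum and the leucine values of Fmod lie above background is unknown.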
